A study of Mus musculus with 6 samples.

Results

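The genes of autophagy, mitophagy and mitochondrial dynamics were examined in the duodenal epithelium of mice with and without *Esrra*. The members were 40 gene symbols chosen by function and looked up by symbol in the table of 22611 genes, where 39 were found. *Tfeb* was not found under that symbol and is described separately below from the older symbol *Tcfeb*. The members fall into 10 roles, from the kinases that start an autophagosome to the proteins that divide mitochondria.

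RNA-seq was performed on epithelium released with EDTA from the duodenum of 3 WT and 3 *Esrra*-/- mice, 1 library per mouse. *Esrra* encodes estrogen-related receptor alpha, an orphan nuclear receptor that activates genes of mitochondrial metabolism. The *Esrra*-/- mice carried a germline null allele, so the receptor was missing from every tissue and not from the intestine alone, and the WT mice were their littermates. Both genotypes were fed a high-fat diet, which is therefore shared by all 6 libraries, and the labels give neither the age nor the sex of a mouse. The study collected epithelium whole or as separate crypts and villi, and its RNA-seq samples are given as duodenal epithelia. Transcripts that mark crypts and transcripts that mark villi were both present in all 6 libraries. The comparison asks how transcript levels differ in the epithelium when *Esrra* is lost.

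Macroautophagy wraps part of the cytoplasm in a double membrane, the autophagosome, and delivers it to the lysosome for digestion. Small ubiquitin-like proteins of the ATG8 family are attached to lipid on that membrane and hold the receptors that bring in cargo. Mitophagy is the selective removal of mitochondria by this route, and fission, which cuts a mitochondrion from its network, and fusion, which joins it back, help to set which mitochondria are removed. In the intestinal epithelium autophagy is best known from Paneth cells, whose granule secretion depends on it. Much of this pathway is controlled after transcription, so transcript levels do not measure its flux.

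Of the 5 ATG8 family members, 4 are shown by the 3′ end of their coding sequence, because this is where the ATG4 proteases, also members, cut the new protein to expose a glycine that can be joined to lipid. Each sequence runs from 6 codons before that glycine to the stop codon, read from the GENCODE M1 transcripts on mm9, and the capitals mark the glycine codon. The coordinates are those of the whole gene, within which the printed bases are the end of the coding sequence.
Map1lc3a, chr2:155102033-155103809, plus strand: gcctcccaagaaaccttcGGCttctga
Gabarap, chr11:69804645-69808453, plus strand: agtgatgaaagcgtctatGGTctgtga
Gabarapl1, chr6:129483218-129492349, plus strand: agtgatgaaagtgtctatGGAaaatga
Gabarapl2, chr8:114464603-114477512, plus strand: agcggagagaacacttttGGCttctga
In each of these 1 codon follows the glycine before the stop. Over the whole coding sequence *Gabarap* and *Gabarapl1* were 74.9% identical, *Map1lc3a* and *Map1lc3b* 74.1%, and *Gabarap* and *Gabarapl2* 61.9%, while a member of the LC3 branch and one of the GABARAP branch shared 49.2% to 53.3%. No member shared a stretch of 31 bases with another member in the annotated coding transcripts. Where more than 10% of a member's stretches occurred in genes outside the list, on either strand, the gene sharing the most is named beside that member. The share counts all other genes together, and the levels of the rest of them were not read.

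Values are FPKM, fragments scaled to the length of the transcript and to the size of the library, so the levels of different genes can be compared per length. Tests were run with limma on log2(FPKM + 0.1) over the 10596 genes with a mean FPKM above 1. Every fold change below is *Esrra*-/- over WT on that log2 scale, which understates the change of low genes. The call of a lower or higher gene needed both an unadjusted p below 0.05 and a log2 fold change larger than 0.58 in size, and adjusted p-values are Benjamini-Hochberg over all genes tested.

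*Esrra* was at 49.4, 73.5 and 103.6 FPKM in the WT libraries and at 10.35, 9.42 and 8.72 FPKM in the *Esrra*-/- libraries. All the *Esrra*-/- libraries lay below all the WT libraries, and their mean was 12.6% of the WT mean (log2 fold change −2.92, SE 0.26, limma adjusted p = 0.0215; two-sided exact permutation p = 0.1, the smallest that 3 against 3 allows). Leaving out 1 library gave fold changes of −3.19 to −2.66 and adjusted p-values of 0.02285 to 0.185, above 0.05 without WT replicate 2, WT replicate 3, *Esrra*-/- replicate 1 or *Esrra*-/- replicate 3, and *Esrra* was called in each of these fits. The epithelial identity of the tissue was plain in the villus enterocyte markers, led by *Apoa4*, which summed to 41140 to 66510 FPKM in WT and 50680 to 70610 FPKM in *Esrra*-/-, while the mesenchymal markers, led by *Vim*, summed to at most 7.33 FPKM in a library and 5 of the 7 pancreatic acinar markers in the table were at 0 in all 6. Replicate 3 of each genotype held almost no Y-linked transcript (0.0487 and 0.222 FPKM summed, against 27.3 to 46.7 FPKM in the other 4 libraries). Where a difference is given below for replicates 1 and 2 and for replicate 3, the libraries are split in this way. The replicate 3 value is then 1 library against 1, without a spread.

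None of the 38 members tested was called lower or higher, where 491 genes, 4.63% of all genes tested, were called in either direction. An unadjusted p under 0.05 was found for 2 members, *Atg9a* and *Atg4b*, both with the higher value in *Esrra*-/-, or 5.26% of those tested, against 10.8% of all genes tested (4.3% higher and 6.49% lower). No member had an adjusted p under 0.05, which 0.0378% of all genes tested had, and the lowest among the members was 0.404. The log2 fold changes ran from −0.35 for *Wipi1* to 0.41 for *Atg9a*. Of the 38, 28 were above 0 and 10 below, 73.7% above against 54.3% of all genes tested, of which 45.7% were below, with a median of 0.08 for the members and 0.03 for all genes tested. Without WT replicate 1 that order turned, with 0.0056 for the members and 0.0219 for all genes. In the roles of autophagosome formation and cargo, 23 of 29 tested genes were above 0 with a median of 0.10, and in mitophagy, fusion and fission 5 of 9 with a median of 0.06.

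For 19 of the 38 members the whole 95% interval of the fold change lay inside 0.58 either way, as it did for 39.8% of all genes tested. These were *Ulk1*, *Becn1*, *Pik3c3*, *Atg2a*, *Atg2b*, *Wipi2*, *Atg3*, *Atg5*, *Atg7*, *Atg12*, *Atg16l1*, *Atg4c*, *Map1lc3b*, *Nbr1*, *Pink1*, *Bnip3l*, *Mfn1*, *Mfn2* and *Dnm1l*. A difference of the size needed for a call was outside the intervals of these genes, and inside those of the other 19. The distance from the estimate to the end of its interval was 0.27 at the narrowest, for *Mfn2*, 0.40 at the median and 1.76 at the widest, for *Atg16l2*.

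**Figure D1:**
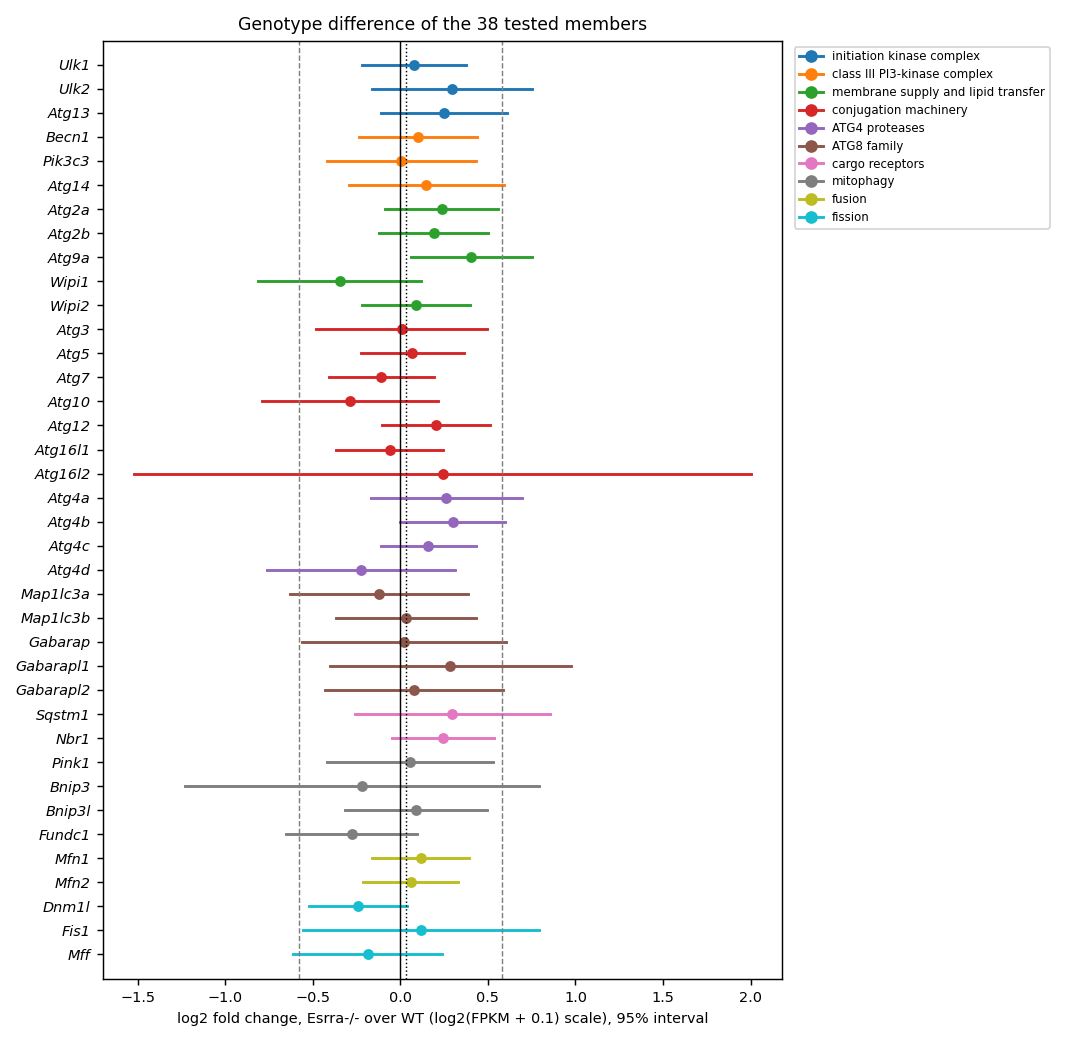
Log2 fold change of each of the 38 tested members, Esrra-/- over WT on the log2(FPKM + 0.1) scale, with its 95% interval from limma (3 libraries per genotype), coloured by role. The dashed lines mark 0.58 either way, the dotted line the median of all genes tested at 0.03; the interval of Atg9a is clear of 0, that of Atg4b starts at 0, and that of Atg16l2 is the widest.

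The genotypes did not overlap for 5 members, 13.2%, where 17.6% of all genes tested did not overlap, 8.45% higher and 9.14% lower. *Atg9a*, *Atg4b*, *Atg4c* and *Nbr1* lay higher in every *Esrra*-/- library than in any WT library, and *Dnm1l* lay lower.

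Levels spanned a wide range across the pathway. The mean over the 6 libraries had a median of 9.95 FPKM over the 39 members and was highest for *Gabarap* at 514.0 FPKM. *Gabarap* and *Fis1*, at 127.5 FPKM, were the only members over 100 FPKM, 17 members lay between 10 and 100, 19 between 1 and 10, and 1, which was not tested, lay below 1.

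Autophagosome formation starts with the ULK kinase complex, in which *Ulk1* and *Ulk2* encode the kinases and *Atg13* a regulatory subunit. *Atg13*, the most abundant, was at 11.8, 14.9 and 13.6 FPKM in WT and at 13.5, 17.7 and 16.9 FPKM in *Esrra*-/-, and the groups overlapped (log2 fold change 0.25, limma adjusted p = 0.592). *Ulk1* differed by 0.08 and *Ulk2* by 0.29 (limma adjusted p = 0.613), so that all 3 estimates were above 0 and none passed the test.

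The class III PI3-kinase complex marks the growing membrane with a phosphoinositide, through the lipid kinase encoded by *Pik3c3* and its partners *Becn1* and *Atg14*. *Becn1* was at 64.9, 65.5 and 75.1 FPKM in WT and at 70.5, 67.1 and 83.2 FPKM in *Esrra*-/-, with the highest value of each genotype in replicate 3. Its log2 fold change was 0.10, that of *Pik3c3* 0.01 and that of *Atg14* 0.15. Of the 31-base stretches of *Becn1*, 27.0% also occur in transcripts of other genes. *Cntd1*, which shares the most of them, was at 0.172 to 0.345 FPKM. *Becn1* stood above *Pik3c3*, and *Pik3c3* above *Atg14*, in all 6 libraries.

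Membrane reaches the autophagosome through ATG9A, a lipid scramblase carried on vesicles, and the lipid transfer proteins ATG2A and ATG2B, which are placed by the phosphoinositide-binding WIPI proteins. *Atg9a* was at 29.0, 30.1 and 31.9 FPKM in WT and at 39.35, 34.7 and 47.6 FPKM in *Esrra*-/-. The *Esrra*-/- libraries all lay above the WT libraries and spread more widely (40.5 ± 6.54 against 30.3 ± 1.45 FPKM, mean ± SD, n = 3 each). The log2 fold change was 0.41 with a 95% interval of 0.06 to 0.75 (limma with Benjamini-Hochberg adjustment, adjusted p = 0.404), the largest of the members tested. Its size was short of 0.58. The difference was 0.32 between the means of replicates 1 and 2 and 0.58 between the libraries of replicate 3. Leaving out WT replicate 1, WT replicate 2, *Esrra*-/- replicate 1 or *Esrra*-/- replicate 3 brought the unadjusted p above 0.05, with fold changes of 0.37, 0.40, 0.42 and 0.28. *Wipi1* had the most negative estimate of the members at −0.35 (limma adjusted p = 0.568), with overlapping groups, while *Atg2a*, *Atg2b* and *Wipi2* were at 0.24, 0.19 and 0.09.

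The conjugation machinery attaches ATG8 proteins to lipid. ATG7 is its E1-like enzyme, ATG3 and ATG10 are its E2-like enzymes, and ATG5, ATG12 and ATG16L1 form the complex that directs the reaction to the membrane. *Atg3*, the most abundant, was at 20.3, 20.4 and 30.1 FPKM in WT and at 22.0, 19.98 and 28.8 FPKM in *Esrra*-/-, so that replicate 3 was the highest in both genotypes and the means were nearly equal (log2 fold change 0.01). The other estimates were 0.07 for *Atg5*, −0.11 for *Atg7*, −0.29 for *Atg10* (limma adjusted p = 0.657), 0.20 for *Atg12* and −0.06 for *Atg16l1*. *Atg16l2*, a paralog of *Atg16l1*, passed the filter on low values only through WT replicate 3, *Esrra*-/- replicate 1 and *Esrra*-/- replicate 3, the libraries in which it was above 1 FPKM, and its interval ran from −1.520 to 2.003. 

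The 4 ATG4 proteases cut ATG8 proteins at the glycine shown above and also release them from lipid. *Atg4b*, whose product is the main ATG4 activity of mammalian cells, was at 12.1, 14.8 and 13.0 FPKM in WT and at 17.7, 15.2 and 16.2 FPKM in *Esrra*-/-. All *Esrra*-/- libraries lay above all WT libraries, by a small margin between the closest (13.3 ± 1.37 against 16.4 ± 1.24 FPKM). The log2 fold change was 0.30 (limma with Benjamini-Hochberg adjustment, adjusted p = 0.462), and among the fits with 1 library fewer the unadjusted p was below 0.05 in that without WT replicate 2 and in no other.

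*Atg4c* was at 5.56, 5.52 and 6.10 FPKM in WT and at 6.23, 6.74 and 6.27 FPKM in *Esrra*-/-. The groups did not overlap, though WT replicate 3 came close to *Esrra*-/- replicate 1, and the fold change was 0.16 (limma adjusted p = 0.645). *Atg4d*, the most abundant, was at 24.3, 25.4 and 35.8 FPKM in WT and at 21.0, 20.4 and 32.3 FPKM in *Esrra*-/-, with overlapping groups (log2 fold change −0.22, limma adjusted p = 0.753). *Atg4a* was at 0.26 (limma adjusted p = 0.634).

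The order *Atg4d*, *Atg4b*, *Atg4a*, *Atg4c* held in all 6 libraries. *Atg4d* made up 49.7%, 47.9% and 56.9% of the summed FPKM of the 4 proteases in WT and 38.7%, 41.4% and 49.1% in *Esrra*-/-. *Esrra*-/- replicate 3 lay among the WT values, and the mean share differed by −8.41 percentage points (two-sided exact permutation p = 0.2, Benjamini-Hochberg adjusted 0.667 over the 4 shares compared). Of the 31-base stretches of *Atg4d* transcripts, 30.3% also occur in those of other genes, of which *Kri1*, at 1.85 to 3.13 FPKM, shares the most. For *Atg4a* the figure was 18.2%, and *Syt6*, which shares the most with it, was at 0 FPKM in every library.

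The ATG8 family was dominated by *Gabarap*, at 427.5, 447.3 and 658.9 FPKM in WT and 457.0, 442.7 and 650.5 FPKM in *Esrra*-/-. Replicate 3 was the highest library of each genotype, and the genotype means were close (511 ± 128 and 517 ± 116 FPKM, log2 fold change 0.02, 95% interval −0.56 to 0.61). Per length, *Gabarap* held 83.45% to 85.45% of the family's FPKM in every library.

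*Gabarapl2*, named GATE-16 for its first known role in Golgi traffic, was at 34.1, 38.7 and 54.6 FPKM in WT and at 42.8, 37.3 and 53.2 FPKM in *Esrra*-/- (log2 fold change 0.08). *Map1lc3b*, the LC3 protein used as the standard autophagosome marker, was at 30.0, 37.2 and 42.5 FPKM in WT and at 32.7, 37.15 and 41.8 FPKM in *Esrra*-/- (log2 fold change 0.03, 95% interval −0.37 to 0.43). Replicate 3 was again the highest in each genotype for both genes, and the libraries of a genotype were further apart than the genotype means. *Map1lc3b* shares 32.9% of its 31-base stretches with other genes, most of all with the gene model *Gm6055*, which was at 0.128 to 0.756 FPKM.

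*Map1lc3a* was at 7.02, 7.97 and 10.7 FPKM in WT and at 7.34, 6.36 and 9.91 FPKM in *Esrra*-/- (log2 fold change −0.12). *Gabarapl1*, the least abundant, was at 2.93, 4.79 and 5.94 FPKM in WT and at 3.96, 6.58 and 5.87 FPKM in *Esrra*-/- (log2 fold change 0.28, 95% interval −0.40 to 0.97). The groups overlapped for both, and the *Gabarapl1* estimate rested on WT replicate 1, its lowest library, without which it was 0.0034. Its share of the family was 0.749 ± 0.156% in WT and 0.914 ± 0.285% in *Esrra*-/- (two-sided exact permutation p = 0.5, adjusted 0.667), a difference of 0.164 percentage points that was 0.0 when *Esrra*-/- replicate 2 was left out and at most 0.257 in the other fits of this kind.

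**Figure D2:**
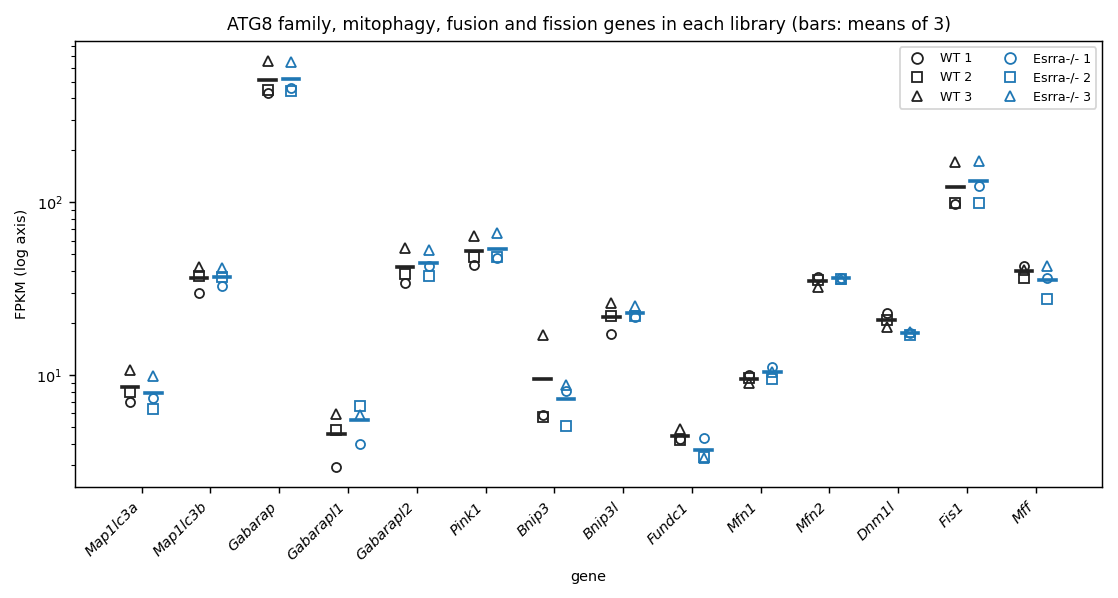
FPKM on a log axis of the ATG8 family, mitophagy, fusion and fission genes above the filter in each of the 6 libraries, WT in black and Esrra-/- in blue, with a circle, square and triangle for replicates 1, 2 and 3 and bars for the means of 3. The triangles top both genotypes for Gabarap and Fis1, and the WT triangle of Bnip3, at 16.99 FPKM, stands apart from the other libraries.

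Of the cargo receptors, *Sqstm1* encodes p62, which carries ubiquitinated proteins to the autophagosome, and *Nbr1* a receptor that acts with it. *Nbr1* was at 30.1, 34.3 and 34.5 FPKM in WT and at 36.4, 40.9 and 39.9 FPKM in *Esrra*-/-. All *Esrra*-/- libraries lay above all WT libraries (33.0 ± 2.48 against 39.05 ± 2.37 FPKM), with a log2 fold change of 0.24 (limma with Benjamini-Hochberg adjustment, adjusted p = 0.531). The difference was 0.26 in replicates 1 and 2 and 0.21 in replicate 3.

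*Sqstm1* was at 55.95, 57.5 and 100.4 FPKM in WT and at 78.5, 85.2 and 89.55 FPKM in *Esrra*-/-. WT replicate 3 was the highest of the 6 libraries, while the other WT libraries lay below every *Esrra*-/- library. The log2 fold change was 0.30 (limma adjusted p = 0.684). It was 0.53 in replicates 1 and 2 and −0.16 in replicate 3, and without WT replicate 3 it was 0.57 (limma with Benjamini-Hochberg adjustment, adjusted p = 0.375), short of a call. *Sqstm1* shares 19.2% of its 31-base stretches with other genes, most of all with *3010026O09Rik*, at 0.711 to 1.32 FPKM.

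In mitophagy, PINK1 is the kinase that gathers on damaged mitochondria and marks them for removal, and BNIP3, BNIP3L (also called NIX) and FUNDC1 are outer membrane receptors that bind ATG8 proteins directly. *Pink1* was at 43.6, 48.6 and 64.0 FPKM in WT and at 47.7, 48.1 and 66.3 FPKM in *Esrra*-/- (log2 fold change 0.06, 95% interval −0.42 to 0.53). *Bnip3l* was at 17.3, 21.9 and 26.2 FPKM in WT and at 21.5, 22.1 and 25.2 FPKM in *Esrra*-/- (log2 fold change 0.09, 95% interval −0.31 to 0.50). For both genes the groups overlapped throughout and replicate 3 was the highest in each genotype.

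*Bnip3*, known as a target of hypoxia-inducible factors, was at 5.83, 5.72 and 16.99 FPKM in WT and at 8.10, 5.09 and 8.72 FPKM in *Esrra*-/-. WT replicate 3 was far above the others, and the mean difference rested on it. The log2 fold change was −0.22 with all libraries (95% interval −1.23 to 0.79, limma adjusted p = 0.880) and 0.30 without WT replicate 3. In replicates 1 and 2 alone the difference was 0.15, and in replicate 3 it was −0.95. *Bnip3* made up 28.4 ± 9.70% of the sum of *Bnip3* and *Bnip3l* in WT and 23.9 ± 4.57% in *Esrra*-/- (two-sided exact permutation p = 0.7, adjusted 0.7), and without WT replicate 3 the mean share was 0.948 percentage points higher in *Esrra*-/-.

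*Fundc1* was at 4.24, 4.21 and 4.84 FPKM in WT and at 4.325, 3.35 and 3.29 FPKM in *Esrra*-/-. *Esrra*-/- replicates 2 and 3 lay below every WT library and replicate 1 lay among them (log2 fold change −0.28, 95% interval −0.65 to 0.09, limma adjusted p = 0.568). The order *Pink1*, *Bnip3l*, *Bnip3*, *Fundc1* held in all 6 libraries.

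The mitofusins join the outer membranes of mitochondria, and *Mfn2* also ties mitochondria to the endoplasmic reticulum. *Mfn2* was at 36.8, 35.3 and 32.3 FPKM in WT and at 36.7, 36.0 and 36.1 FPKM in *Esrra*-/- (log2 fold change 0.06, 95% interval −0.21 to 0.33), the narrowest interval of the members. *Mfn1* was at 10.0, 9.64 and 8.94 FPKM in WT and at 11.1, 9.51 and 10.4 FPKM in *Esrra*-/- (log2 fold change 0.12, 95% interval −0.16 to 0.39). For both, WT replicate 3 was the lowest library. *Mfn2* held 78.5 ± 0.163% of the mitofusin FPKM in WT and 77.8 ± 1.21% in *Esrra*-/- (two-sided exact permutation p = 0.4, adjusted 0.667).

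Fission is carried out by the dynamin-related GTPase DRP1, the product of *Dnm1l*, which is brought to the outer membrane by adaptors such as MFF. FIS1 is a further outer membrane protein of this process. *Dnm1l* was at 22.7, 20.8 and 18.85 FPKM in WT and at 17.6, 17.2 and 17.8 FPKM in *Esrra*-/-. Every *Esrra*-/- library lay below every WT library, and the *Esrra*-/- libraries were close together (20.8 ± 1.94 against 17.5 ± 0.338 FPKM). The log2 fold change was −0.24 with a 95% interval of −0.52 to 0.04 (limma with Benjamini-Hochberg adjustment, adjusted p = 0.519). It was −0.32 in replicates 1 and 2 and −0.08 in replicate 3.

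*Mff* was at 42.7, 36.5 and 40.5 FPKM in WT and at 36.3, 27.6 and 42.9 FPKM in *Esrra*-/-, with *Esrra*-/- libraries at both ends of the range (log2 fold change −0.19, limma adjusted p = 0.739). *Fis1* was at 98.5, 99.6 and 170.3 FPKM in WT and at 124.2, 98.7 and 173.5 FPKM in *Esrra*-/- (log2 fold change 0.12, 95% interval −0.56 to 0.79). In both genotypes replicate 3 was the highest, and that step was larger than the difference between the genotypes. The order *Fis1*, *Mff*, *Dnm1l* held in all 6 libraries.

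Replicate 3 was the highest library of both genotypes for 21 of the 38 members, 55.3%, against 28.1% of all genes tested. These members had shorter transcripts, with a median of 2375 bases for the longest annotated transcript against 3450 bases for the other 17. Across the 38 members the length and the difference between replicate 3 and the other replicates had a Spearman rho of −0.601, a description over genes that share the same 6 libraries. The difference on the log2(FPKM + 0.1) scale was 1.75 for *Atg16l2*, 0.99 for *Bnip3* and 0.71 for *Fis1*, and −0.20 for *Wipi1*. The libraries of replicate 3 also had the largest summed FPKM, 999902 in WT and 901171 in *Esrra*-/-, against 707094 to 818406 in the others, and their part in the levels of the members was not tested. With the presence of Y-linked transcripts as a covariate, 3 members had an unadjusted limma p under 0.05, *Atg9a*, *Atg4b* and *Atg4d*, and none was called.

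**Figure D3:**
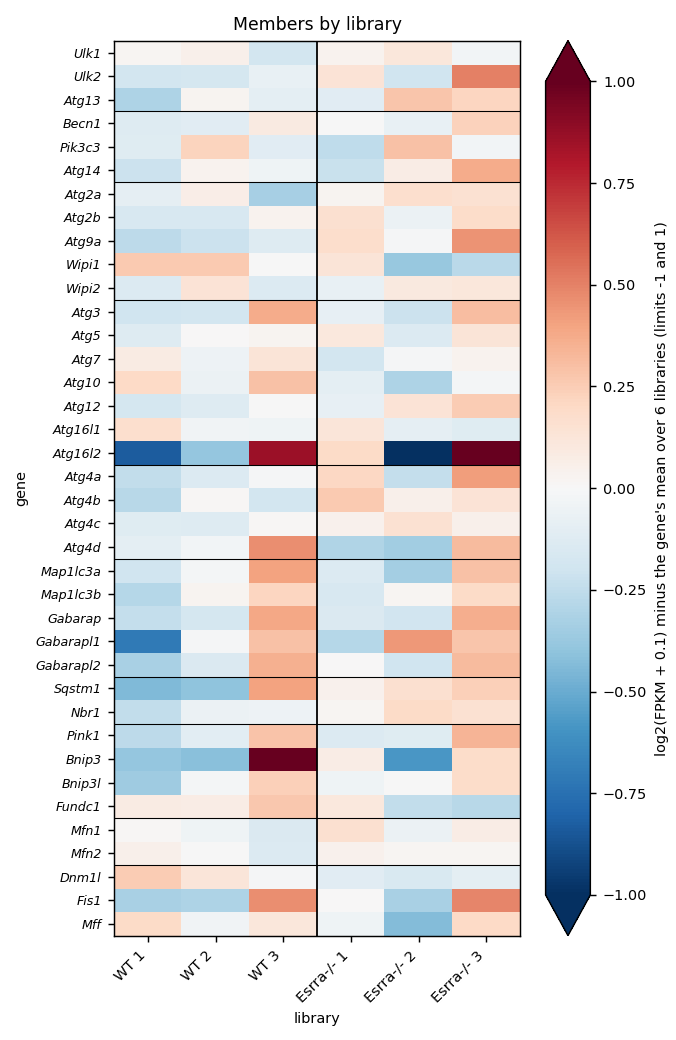
Level of each tested member in each library as log2(FPKM + 0.1) minus the gene's mean over the 6 libraries (colour scale ending at −1 and 1), with a vertical line between WT and Esrra-/- and horizontal lines between roles. Replicate 3 is the highest library of both genotypes for 21 of the 38 genes, including 4 of the 5 ATG8 family genes, and for neither mitofusin.

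**Figure D4:**
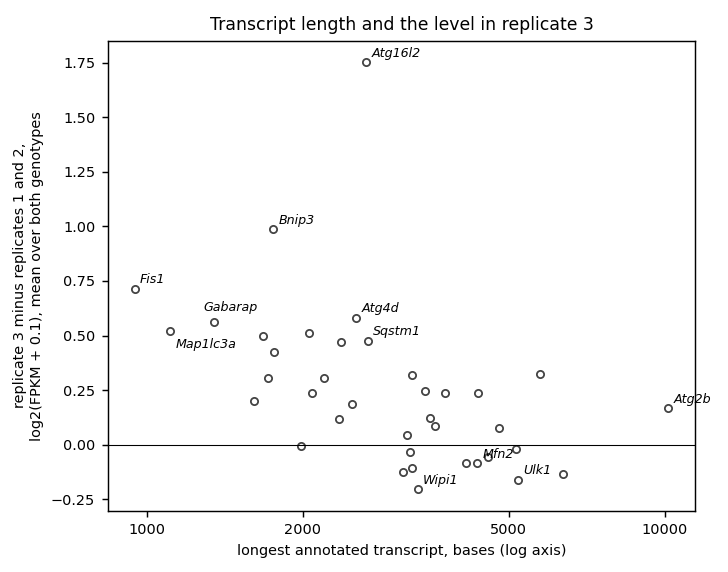
Difference between replicate 3 and the mean of replicates 1 and 2, averaged over both genotypes on the log2(FPKM + 0.1) scale, against the longest annotated transcript in bases on a log axis, 1 point for each of the 38 tested members. Points fall with length only in broad outline (Spearman rho −0.601): Fis1, the shortest, lies at 0.71, Atg2b, the longest, at 0.17, and Atg16l2 and Bnip3 stand above the rest.

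The transcription factor EB, which activates lysosomal and autophagy genes when nutrients are scarce, was measured under its older symbol *Tcfeb*. It was at 6.05, 7.36 and 10.6 FPKM in WT and at 5.125, 5.66 and 8.91 FPKM in *Esrra*-/-, with overlapping groups (log2 fold change −0.29, 95% interval −0.92 to 0.35, limma adjusted p = 0.736). Its relative *Tcfe3* was at 0.10 in log2 fold change. Both are left out of the counts above.

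The rest of the pathway and the hypoxia response were read from 7 further lists, which held 167 distinct genes tested. Of these, 4 were called lower, *Car9* of the hypoxia response among them, and 1 higher. An unadjusted p under 0.05 was found for 16, and the lowest adjusted p was 0.195. For comparison, 3.28% of all genes tested were called lower and 1.35% higher, and 10.8% had an unadjusted p under 0.05.

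Of 21 other core autophagy genes, none was called and 17 had an estimate above 0, with a median of 0.14. The smallest p belonged to *Zfyve1*, which encodes a phosphoinositide-binding protein of the membrane site where autophagosomes form, at 10.1, 11.0 and 9.78 FPKM in WT and 12.15, 12.8 and 15.85 FPKM in *Esrra*-/- (log2 fold change 0.39, limma with Benjamini-Hochberg adjustment, adjusted p = 0.393). Its groups did not overlap, and neither did those of *Vmp1*, for an endoplasmic reticulum scramblase (0.28, limma adjusted p = 0.481). The same held for *Ambra1* (0.25, limma adjusted p = 0.561) and the gene listed as *1700021K19Rik*, an older symbol of *Rubcn* (0.23, limma adjusted p = 0.548). Of all genes tested, 8.45% had groups apart on the higher side. Of 12 other receptors and adaptors tested none was called, 10 were above 0 and the median was 0.17. *Tollip*, a ubiquitin-binding adaptor, was at 0.43 (limma with Benjamini-Hochberg adjustment, adjusted p = 0.378), with *Ncoa4*, the receptor for ferritin, at 0.31 and *Optn*, for optineurin, at 0.25, both with overlapping groups.

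Of 45 lysosomal genes tested, 35 were above 0 with a median of 0.16, and 1 was called. *Glb1*, which encodes lysosomal beta-galactosidase, rose from 17.5, 16.95 and 19.6 FPKM in WT to 26.8, 27.1 and 30.2 FPKM in *Esrra*-/-, with a clear gap between the groups (18.03 ± 1.42 against 28.1 ± 1.90 FPKM, log2 fold change 0.64, limma with Benjamini-Hochberg adjustment, adjusted p = 0.195). It was called in each of the 6 fits without a library. The next smallest p-values were those of *Atp6v0a2* (0.34, limma adjusted p = 0.475) and *Atp6v0a1* (0.29, limma adjusted p = 0.480), for subunits of the proton pump that acidifies the lysosome.

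Nutrient sensing through mTORC1 and AMPK sets when autophagy starts. None of the 29 tested genes of that list was called, and 14 were above 0 and 15 below (median −0.01). *Mtor* itself was at 4.88, 4.49 and 4.30 FPKM in WT and 4.34, 4.61 and 4.07 FPKM in *Esrra*-/-, with overlapping groups (log2 fold change −0.07, limma adjusted p = 0.874). *Lamtor3*, for a subunit of the lysosomal anchor of mTORC1, did not overlap between genotypes, at 20.35, 19.3 and 24.0 FPKM in WT and 15.4, 14.6 and 15.2 FPKM in *Esrra*-/- (log2 fold change −0.48, limma with Benjamini-Hochberg adjustment, adjusted p = 0.296). *Prkaa2*, for a catalytic subunit of AMPK, was at −0.39 (limma adjusted p = 0.464) and *Akt1s1*, for an mTORC1 inhibitor, at 0.24 (limma adjusted p = 0.536).

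Of 23 other mitophagy genes 1 was called lower, the median being 0.01. *Phb*, which encodes prohibitin, a scaffold protein of the inner mitochondrial membrane, fell from 75.8, 83.75 and 76.3 FPKM in WT to 45.1, 52.9 and 49.8 FPKM in *Esrra*-/-. The gap between the groups was wide (78.6 ± 4.46 against 49.3 ± 3.90 FPKM, log2 fold change −0.67, limma with Benjamini-Hochberg adjustment, adjusted p = 0.195), and *Phb* was called in each fit without a library. *Mul1*, for a ubiquitin ligase of the outer membrane, missed the fold threshold by little (−0.577, limma adjusted p = 0.326), and *Fundc2*, for a relative of FUNDC1, was at −0.48 (limma adjusted p = 0.410).

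Of 21 other genes of mitochondrial dynamics, 2 were called lower and 6 had an unadjusted p under 0.05, 4 of them lower and 2 higher. Over all genes tested, 6.49% had such a p on the lower side and 4.3% on the higher side. *Chchd3*, for a subunit of the MICOS complex that holds cristae junctions, fell from 102.9, 122.5 and 140.1 FPKM in WT to 74.4, 74.7 and 83.4 FPKM in *Esrra*-/- (log2 fold change −0.64, limma with Benjamini-Hochberg adjustment, adjusted p = 0.289). *Mtfp1*, for an inner membrane protein that promotes fission, fell from 17.15, 16.6 and 19.7 FPKM to 11.5, 12.3 and 11.4 FPKM (log2 fold change −0.59, limma with Benjamini-Hochberg adjustment, adjusted p = 0.207). The groups were apart for both genes. Without WT replicate 3 neither was past 0.58 (−0.54 for *Chchd3*, −0.52 for *Mtfp1*), and *Mtfp1* was at −0.57 without *Esrra*-/- replicate 3, with p still under 0.05 in each case.

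The adaptors that recruit DRP1 beside MFF had estimates of opposite sign. *Smcr7*, the older symbol of *Mief2*, was at 2.77, 3.30 and 3.38 FPKM in WT and 1.86, 2.08 and 2.53 FPKM in *Esrra*-/- (log2 fold change −0.53, limma adjusted p = 0.393). *Smcr7l*, the older symbol of *Mief1*, was at 9.04, 7.36 and 6.51 FPKM in WT and 9.29, 10.1 and 11.55 FPKM in *Esrra*-/- (log2 fold change 0.44, limma adjusted p = 0.398). Neither pair of groups overlapped, and both folds were short of a call. Of the genes that attach mitochondria to microtubule motors, *Rhot2* was at −0.36 (limma adjusted p = 0.375) and *Trak1* at 0.36 (limma adjusted p = 0.393). Their paralogs *Rhot1* (−0.14, limma adjusted p = 0.761) and *Trak2* (−0.06, limma adjusted p = 0.908) had overlapping groups. *Opa1*, whose product fuses the inner membranes, was at 25.9, 23.55 and 19.05 FPKM in WT and 19.8, 19.6 and 19.2 FPKM in *Esrra*-/-, overlapping through WT replicate 3 (log2 fold change −0.21, 95% interval −0.55 to 0.12, limma adjusted p = 0.613).

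**Figure D5:**
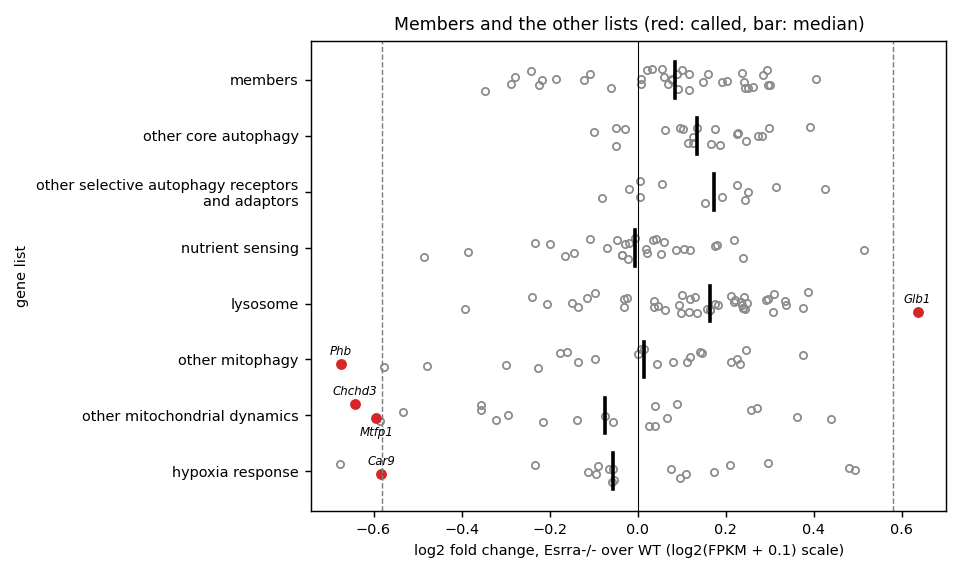
Log2 fold change, Esrra-/- over WT on the log2(FPKM + 0.1) scale, of every tested gene of the members and of 7 further lists, 1 point per gene, with a bar for the median of each list and dashed lines at 0.58 either way. Called genes are red and named: Glb1 on the higher side and Phb, Chchd3, Mtfp1 and Car9 on the lower side, with none among the members.

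Because each library holds epithelium of many cell types, fewer cells of a type and less RNA per cell cannot be told apart. All 12 crypt markers, led by *Olfm4*, had negative log2 fold changes, with a median of −0.64 and 2 of 12 called lower, and summed to 187 to 336 FPKM in WT and 85.6 to 245 FPKM in *Esrra*-/-. Of the 7 Paneth cell markers, led by *Defa24*, 5 were called lower with a median of −1.48, and they summed to 10200 to 21090 FPKM in WT and 2002 to 8842 FPKM in *Esrra*-/-. No crypt or Paneth marker was at 0 in all libraries. Among the members no fold change passed the test beside these shifts, and the part of cell makeup in the members' values was not tested.

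Promoter sequences from 250 bases before to 50 after the start site were matched for 33 of the 40 symbols (43 promoters, RefSeq, GRCm38.p6). They were searched on both strands for the estrogen-related receptor element TCAAGGTCA, its core AAGGTCA, and the E-box motifs CACGTG, TCACGTGA and the CLEAR element, of which each contains the one before it. TCACGTGA with a G before it and a C after it is the CLEAR element searched, which is bound by transcription factor EB and its relatives. TCAAGGTCA was in none of the member promoters and in 0.423% of all 32851 promoters, and AAGGTCA was in that of *Atg4a* alone and in 4.72% of all. The CLEAR element was in none and in 0.326% of all, and TCACGTGA in that of *Atg3* and in 0.974% of all. CACGTG was in 5 of the 43 member promoters, those of *Atg14*, *Atg3*, *Atg5*, *Atg7* and *Bnip3*, and in 7.15% of all promoters. One match of each kind is shown with the bases around it, on the strand of the gene, capitals marking the motif.
Atg4a, chrX:140953650-140953696, plus strand: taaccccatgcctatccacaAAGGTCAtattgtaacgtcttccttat
Atg3, chr16:45158737-45158784, plus strand: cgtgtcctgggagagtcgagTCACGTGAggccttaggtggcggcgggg
Bnip3, chr7:138909589-138909634, minus strand: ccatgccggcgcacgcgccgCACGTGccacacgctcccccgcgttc
The motif begins 175 bases upstream of the start site in *Atg4a*, 72 in *Atg3* and 108 in *Bnip3*. These genes had log2 fold changes of 0.26, 0.01 and −0.22, none of which passed the test. A match is a run of letters in this window and not a measured binding site. The absence of a motif this rare from so few promoters does not tell whether the receptor binds near a member. The study's own map of receptor binding by ChIP-seq was not used here.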

How the data were processed

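TruSeq v2 libraries of the epithelium of the duodenum were made from 3 WT and 3 *Esrra*-/- mice, a kit that does not mark strand. The authors quantified the reads with kallisto on mm9 and deposited FPKM values for 22611 genes; the annotation is not given in the sources used here. The comparison table the authors deposited beside them holds the mean count, log2 fold change, standard error, statistic, p-value and adjusted p of each gene, and was not used. Groups were taken from the labels.

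Log2(FPKM + 0.1) was tested with limma 3.58.1 (R 4.3.3), with a trend and no covariate, for the 10596 genes with mean FPKM above 1, with Benjamini-Hochberg adjustment. Calls needed an unadjusted p below 0.05 with a log2 fold change larger than 0.58 in size, and the fit was tested on simulated data. No count test was run. Depth is unknown from FPKM: the steps between low values gave 0.976 to 1.21 as the ratio of a library's scaling to WT replicate 1. Replicates are separate mice. Shares within a family were compared with a two-sided exact permutation test.

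Members and lists were chosen with earlier results of these data known. Named were *Esrra*, every member, *Opa1*, *Mtor*, the 3 genes of each list with the smallest p and any called, and the most abundant gene of each marker list. An item of the list and a sequence are not reported here. Values by library are given for members with p under 0.05 or groups apart, the most abundant of each role, and all of the ATG8, mitophagy, fusion and fission roles. *Tcfeb*, *Tcfe3*, *Smcr7*, *Smcr7l*, *Trak1*, *Trak2*, *Rhot1*, *Ambra1* and *Spink4* lie outside this rule and were chosen after their values were seen. A further 5 genes are named for sharing 31-base stretches with a member. The list symbols *Epg5*, *Lamtor1*, *Lamtor4*, *Lamtor5*, *Tfe3*, *March5*, *Mtfr1l*, *Siglecf* and *Amy2b* were not matched and were not analysed here, except *Tfe3*, matched as *Tcfe3*.

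The alternatives were pseudocounts of 1 and 0.01, no filter, FPKM above 1 in every library, quantile normalization, median-ratio scaling, no trend, a replicate block, Y-linked transcripts as a covariate, an adjusted p as the call and each library left out.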

Additional observations from a re-analysis of the deposited data

How the results depend on the processing

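No member was called under any alternative, and 26 of the 38 members kept the sign of their fold change under all of them. The other 12 changed sign under at least one, among them *Gabarap*, *Map1lc3b*, *Pink1*, *Bnip3* and *Fis1*. The median fold change of the members ran from 0.0056 without WT replicate 1, below the 0.0219 of all genes in that fit, to 0.18 without WT replicate 3, where that of all genes was 0.03. The number of members with an unadjusted p under 0.05, 2 with all libraries, was 1 (*Atg9a*) with a pseudocount of 0.01, with FPKM above 1 in all libraries, with median-ratio scaling and without a trend. It ran from 0 (without WT replicate 1, *Esrra*-/- replicate 1 or *Esrra*-/- replicate 3) to 3 (without WT replicate 3 or *Esrra*-/- replicate 2) when a library was left out. Over all genes, 528 were called lower and 277 higher with no filter on low values, and 2 lower and 2 higher by an adjusted p under 0.05. Without 1 library the genes called lower ran from 252 to 533 and those with p under 0.05 from 688 (without *Esrra*-/- replicate 1) to 1303. With 1 library left out, the difference in share ran from −11.4 to −5.70 percentage points for *Atg4d*, from −1.35 to −0.165 for *Mfn2* and from −8.35 to 0.948 for *Bnip3*. With Y-linked transcripts as a covariate 1973 genes had p under 0.05.

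Replicate numbers were not taken to pair the mice, since the deviations of same-numbered libraries correlated at 0.012, 0.263 and 0.376 for numbers 1, 2 and 3. Libraries of numbers 2 and 3 correlated best with their own number, while WT replicate 1 did so with *Esrra*-/- replicate 2 (0.182) and *Esrra*-/- replicate 1 with WT replicate 2 (0.028). With the replicate number as a block 4 members (*Atg13*, *Atg9a*, *Atg4d*, *Nbr1*) and 2285 genes had p under 0.05, no member was called, and the adjusted p of *Esrra* was 0.0709.

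In the other lists, quantile normalization called 1 nutrient sensing gene higher and 2 other mitophagy genes lower, and a pseudocount of 1 called 1 gene of mitochondrial dynamics and 0 hypoxia genes lower. Without 1 library, the lower calls ran from 0 to 1 in the lysosomal list, from 1 to 2 in other mitophagy, from 1 to 3 in dynamics and from 0 to 2 in hypoxia, where higher calls ran from 0 to 1. With 3 libraries a genotype, sizes inside an interval given are not excluded by these data.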

Other observations

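Genes of the hypoxia response, with which *Bnip3* is often grouped, were read as a further list. Of the 18 tested, 10 were below 0 and 8 above, with a median of −0.06, and 1 was called. *Car9*, for a membrane carbonic anhydrase, fell from 32.1, 29.85 and 31.7 FPKM in WT to 19.9, 25.8 and 17.6 FPKM in *Esrra*-/-, with the groups apart (log2 fold change −0.58, limma with Benjamini-Hochberg adjustment, adjusted p = 0.326). It was at the edge of the fold threshold and was called in 2 of the 6 fits that left out a library, those without WT replicate 2 and *Esrra*-/- replicate 2. *Kdm3a*, for a histone demethylase, was at 0.30 (limma adjusted p = 0.393), and *Arnt*, for the partner subunit of hypoxia-inducible factors, at 0.48 (limma adjusted p = 0.422).

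Of the remaining marker lists, no marker of villus enterocytes (13 tested, median 0.14), of enteroendocrine cells (6 tested, led by *Gip*), of tuft cells (3 tested, led by *Trpm5*) or of immune cells (9 tested, led by *Cd74*) was called by limma, and none of them had an unadjusted p under 0.05. Among 7 goblet cell markers, led by *Tff3*, 4 estimates were below 0 and 3 above, with a median of −0.05. *Spink4* (−0.78, limma adjusted p = 0.410) was the 1 called, and it was not called with quantile normalization or without WT replicate 1, WT replicate 2, *Esrra*-/- replicate 1 or *Esrra*-/- replicate 3. The immune markers summed to 1415, 1449 and 307.6 FPKM in WT and 732.7, 1408 and 2126 FPKM in *Esrra*-/-. Most of that was *Cd74* alone, at 1288, 1235 and 192.2 FPKM in WT and 634.4, 1224 and 1883 FPKM in *Esrra*-/-, with overlapping groups. Of the pancreatic acinar markers, *Ctrb1* was the most abundant, at no more than 0.265 FPKM in a library.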
